A study of Mus musculus domesticus and Mus musculus molossinus with 8 samples.

Results

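The 10 genes described here handle iron: the hepcidin genes Hamp and Hamp2, the iron sensors Hfe2 (hemojuvelin, also called Hjv) and Tfr2, the uptake receptor Tfrc and its ligand Trf, the ferritin subunits Fth1 and Ftl1, the exporter Slc40a1 (ferroportin) and haem oxygenase Hmox1. They were taken by symbol from 23284 genes, and all 10 were found in both tables of gene levels. Levels were measured by sequencing polyadenylated RNA from 4 mice at 8 weeks of age, with liver and thymus taken from each. The strains were C57BL/6 (B6), a standard laboratory strain, and MSM/Ms (MSM), an inbred strain derived from wild Japanese mice. Each strain contributed an untreated animal and an animal that received 1.5 µg of MegaFasL, a recombinant oligomeric form of Fas ligand, intraperitoneally. This gave 8 groups of 1 library: B6 and MSM, untreated and injected, liver and thymus. The sources used here do not give the interval from injection to harvest, and the untreated and the injected libraries were normalized in separate tables. With 1 library per group there is no replicate check of any single group. The p-values rest on how well a difference repeated across the other factor, with that spread drawn toward the spread of genes of similar level. A standard error given here is thus not that of the gene alone. The labels name B6 Mus musculus domesticus and MSM Mus musculus molossinus, and each strain and treatment is represented by a single animal.

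Hepcidin is a small peptide hormone made by hepatocytes that binds ferroportin, the only known cellular iron exporter, and causes its removal from the membrane. Its transcription is raised by bone morphogenetic protein (BMP) signals through SMAD factors, with hemojuvelin, HFE and transferrin receptor 2 as sensors of body iron, and by interleukin 6 (IL-6) through STAT3. Inside cells, iron regulatory proteins bind hairpins called iron-responsive elements (IREs), which block translation when in a 5′ untranslated region (UTR) and stabilise the mRNA when in a 3′ UTR.

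Mice carry a pair of hepcidin genes that can be measured separately only where their sequences differ. Hamp lies at chr7:30942368-30944032 and Hamp2 at chr7:30922372-30924681, both on the minus strand (mm10, GENCODE annotation). Of the 50-base stretches of the Hamp transcript, 16.6% also occurred in Hamp2, and 28% of those of Hamp2 occurred in another transcript, so part of each level depends on how shared reads were divided.

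4 members carry IREs, which are shown because they group the genes by how iron acts on their RNA. The motif searched on the transcript strand was CNNNNN and then the loop CAGTGN, followed by 5 bases that pair with the 5 bases before the loop, G-T pairs allowed. The loop is in capitals, in windows of 30 bases on the strand of the gene, with positions in mm10.
Tfrc 3′ UTR, chr16:32631218-32631247 (+): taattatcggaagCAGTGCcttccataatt
Tfrc 3′ UTR, chr16:32631597-32631626 (+): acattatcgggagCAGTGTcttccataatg
Tfrc 3′ UTR, chr16:32631662-32631691 (+): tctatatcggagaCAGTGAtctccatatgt
Tfrc 3′ UTR, chr16:32631709-32631738 (+): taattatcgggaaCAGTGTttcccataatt
Fth1 5′ UTR, chr19:9982731-9982760 (+): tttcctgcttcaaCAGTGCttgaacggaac
Ftl1 5′ UTR, chr7:45459779-45459808 (-): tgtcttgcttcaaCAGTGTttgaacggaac
Slc40a1 5′ UTR, chr1:45925465-45925494 (-): ccaacttcagctaCAGTGTtagctaagttt
The motif occurred in 22 of 20731 annotated 5′ UTRs (0.106%) and in 116 of 20731 3′ UTRs (0.56%). It was not found in the UTRs of the other 6 members. The 4 Tfrc hairpins differ in the stem. The CAGTG loop was required by the search, so all hits share it by construction, and hairpins with another loop would be missed. The polyadenylated RNA reports on mRNA level only, so an effect of the 5′ hairpins on translation was not measured.

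1 library stood apart in a way that touches most members. The untreated MSM thymus held liver RNA: the 10 hepatocyte markers were at 2.39% to 3.57% of their level in the untreated B6 liver. Measured against the untreated MSM liver the same markers spread from 1.33% to 5.11%. 5 genes high in B6 liver only, Cyp2b9, Mup3, Cyp4a14, Kng2 and A1bg, were at 2.32% to 4.11% of the B6 liver. By contrast 5 genes high in MSM liver only, Cyp4a12b, Mup1, Cyp2c39, Akr1c18 and Cyp4a32, were at 0 to 0.21% of the MSM liver (both sets were chosen after their values were seen). Hamp was at 3.11% of the B6 liver and 13% of the MSM liver, and Hamp2, Trf and Tfr2 were at 1.71%, 3.59% and 4.2% of the B6 liver. Of these, Hamp lay within the B6 range of the hepatocyte markers, Hamp2 below it, and Trf and Tfr2 above it. Hfe2 lay further above it, at 8.78% of the B6 and 8.04% of the MSM liver, from a level of 1.56 FPKM. How this RNA entered the library was not tested, and thymus results of Hamp and Trf are given with and without it. The library also held 1464 FPKM of brown fat and airway markers against 20.3 to 35 in the other thymi. Hepatocyte markers summed to 3055 FPKM in it and to 212 FPKM in the injected MSM thymus. In the untreated and injected B6 thymi they summed to 42.1 and 77.9 FPKM. The untreated B6 liver in turn held 34.4 FPKM of thymocyte markers, against 4.67 to 5.42 in the other livers. Levels are in FPKM, fragment counts scaled to transcript length and to the mapped fragments of the library, and 1 FPKM on 1 kb stood for an estimated 1.57 to 1.79 fragments in liver and 2.82 to 3.42 in thymus. In bulk RNA, fewer cells of a type and less RNA per cell cannot be told apart.

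**Figure D1:**
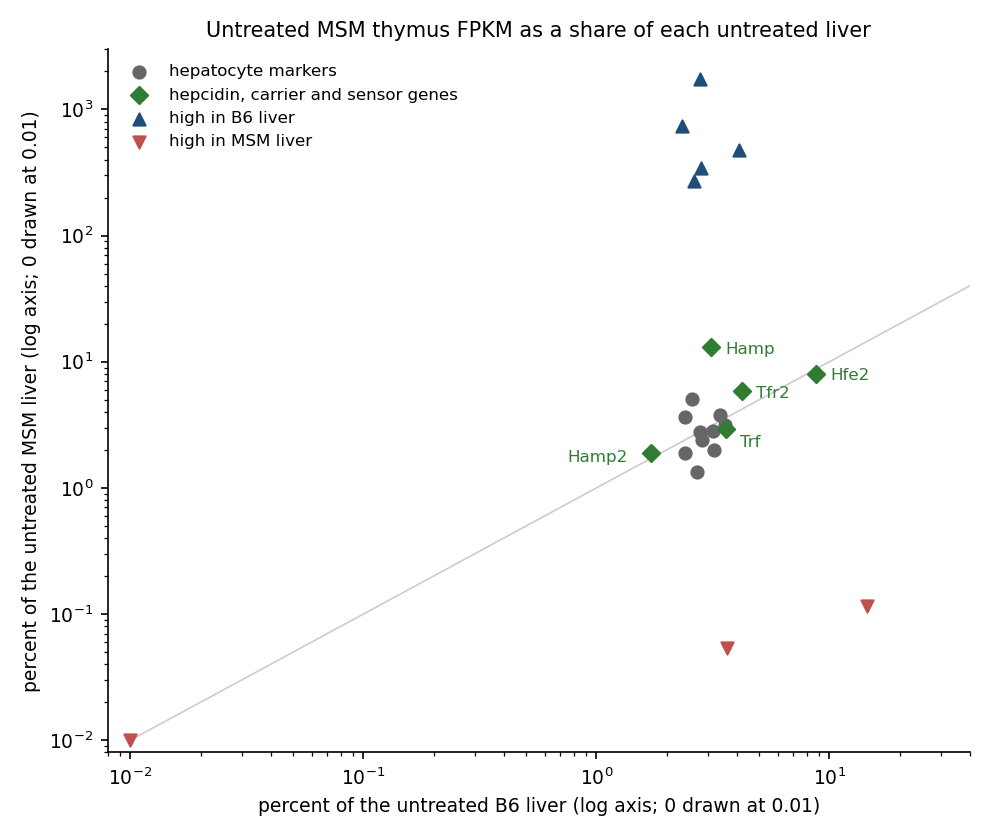
FPKM in the untreated MSM thymus as a percent of the untreated B6 liver (x axis) and of the untreated MSM liver (y axis), both on log axes, 1 point per gene; 0 is drawn at 0.01, and 2 genes high in MSM liver that are listed at 0 in the B6 liver are not drawn. Hepatocyte markers and the B6-liver genes line up between 2.32% and 4.11% on the x axis, and Hamp lies with them at 3.11%.

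The members were first compared across the study's groups, with tests in limma on log2(FPKM + 1) and Benjamini-Hochberg adjusted p under 0.05 over all genes tested. Between liver and thymus the 10 members passed, 9 higher in liver and Tfrc lower, beside 7821 of 12880 genes (60.7%), of which 3687 were higher (28.6%) and 4134 lower (32.1%). Every liver lay above every thymus for 9 members, beside 26.3% of genes, and below for none, beside 29.9%. Hfe2 met the filter on low values only through liver, with a thymus mean of 0.434 FPKM, and so had to differ. Hamp2 and Tfr2 would do so too without the liver RNA in 1 thymus, with thymus means of 0.316 and 0.521 FPKM after its subtraction, so the count of 10 is no support for a tissue difference of these 3. Rescaled so that every library has the same sum, 9 passed, the median gene moved from -0.13 to -1.05, and 2084 genes were called higher and 7788 lower. Between strains in liver only Hamp passed among the 10, lower in MSM, beside 161 of 10971 genes (1.47%), 56 of them higher (0.51%) and 105 lower in MSM (0.957%). The same rescaling moved the median gene there from 0.01 to -0.16. In thymus 9 members passed the filter of a mean of 1 FPKM, and limma called none of them beside 113 of 11610 genes (0.973%), 44 higher (0.379%) and 69 lower (0.594%), while 2 had an unadjusted p under 0.05, as did 13% of genes. Both MSM thymi were above both B6 thymi for Tfrc and Trf among these 9, beside 23.1% of genes tested, and below for none, beside 22.3%. The median strain difference of the 10 members in liver was 0.12 on the log2 scale, against 0.01 for all genes tested. For the strain difference itself compared between the tissues, limma called 0 of 10 members beside 89 of 12880 genes (0.691%), 32 higher (0.248%) and 57 lower (0.443%), and 3 members had an unadjusted p under 0.05, as did 13.1% of genes. The rescaling to a common sum made that split 5 higher and 5 lower. For the injection compared between the tissues it called 0 of 10 beside 5 genes (0.0388%), 1 higher (0.00776%) and 4 lower (0.0311%), and 1 member had an unadjusted p under 0.05, as did 8.04% of genes. Between the injected and untreated mice no member moved at least 2-fold the same way in both strains, beside 316 of 10944 genes in liver (2.89%), 180 higher (1.64%) and 136 lower (1.24%). In thymus the background was 80 of 11615 genes (0.689%), 31 higher (0.267%) and 49 lower (0.422%).

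**Figure D2:**
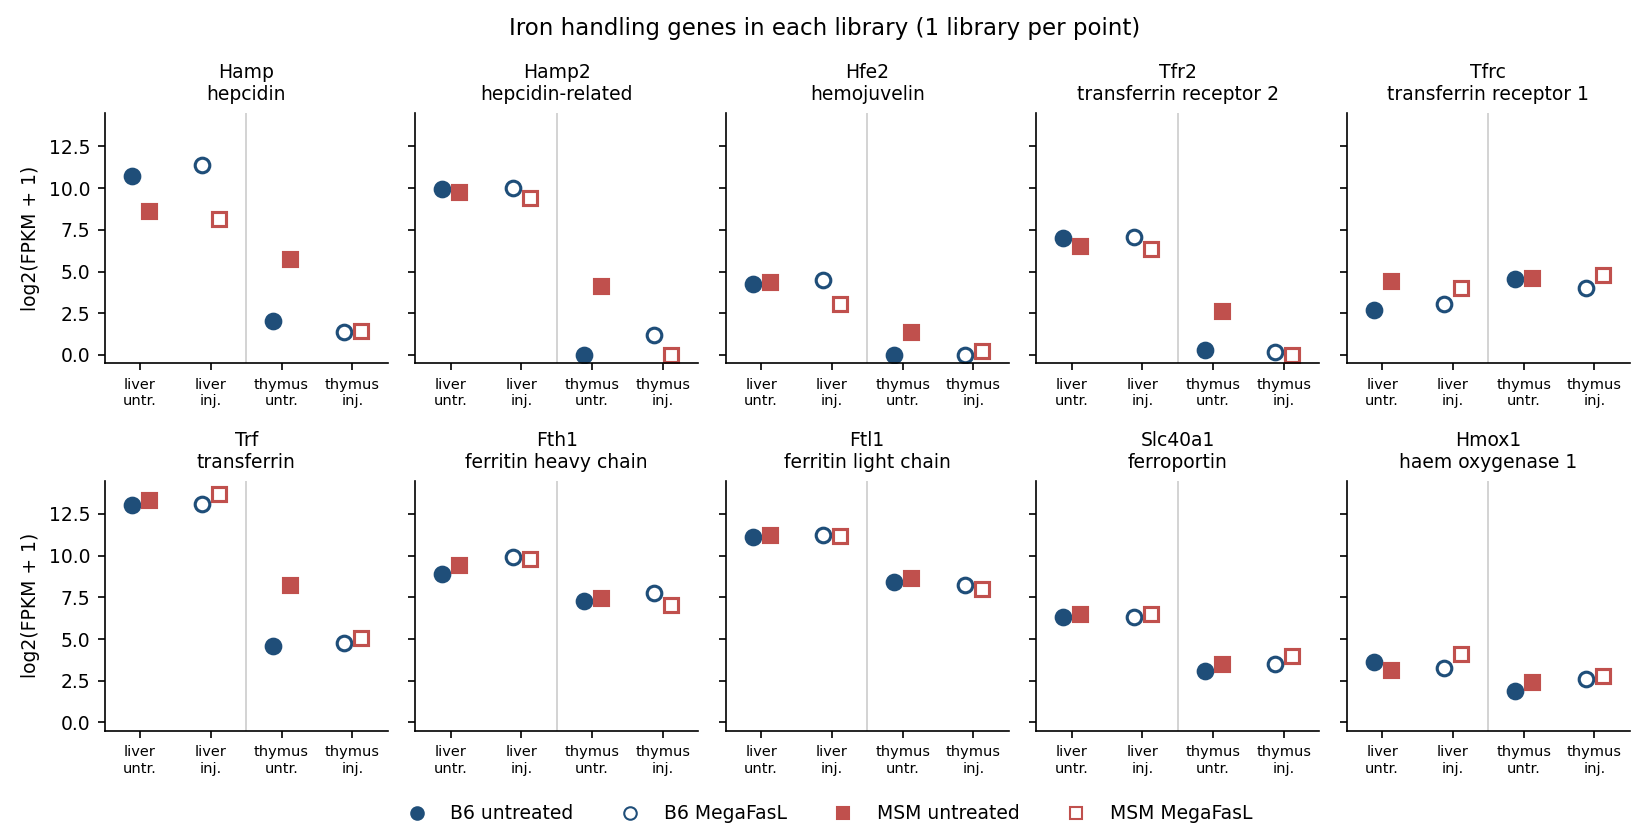
Level of each member in each library as log2(FPKM + 1), with liver at the left and thymus at the right of each panel, B6 as circles and MSM as squares, untreated filled and injected open. Hamp separates the strains in liver, Tfrc is the member whose liver and thymus values overlap, and the filled MSM squares in thymus stand above the other thymi for Hamp, Hamp2, Tfr2 and Trf.

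Hamp, the gene of the iron hormone, stood at 1664 FPKM in the untreated B6 liver and 2647 in the injected B6 liver, but at 398 and 285 FPKM in the untreated and injected MSM livers. Both MSM livers were below both B6 livers, by 4.18-fold without and 9.28-fold with injection. Hamp was thus lower in MSM liver by limma, with a log2 difference of -2.64 ± 0.31 (SE; 4 libraries; adjusted p = 0.0401). These levels rest on an estimated 566, 995, 145 and 94.1 fragments. The call was lost with an added value of 5 in place of 1 (adjusted p = 0.0523) and without limma's mean trend (adjusted p = 0.118), the direction being kept each time. Without any 1 of the 4 livers the difference was -2.97 to -2.30. Such a fit leaves 1 library for a strain and kept no call for any gene, so it cannot decide the call of Hamp. Without the untreated B6 liver, which held thymocyte RNA, the difference was -2.97. MSM reads were aligned to a reference built from B6, and a loss of MSM reads at this gene was not tested.

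Hamp2, the other hepcidin gene, did not pass the strain test. It stood at 973 and 1035 FPKM in the untreated and injected B6 livers and at 884 and 683 FPKM in the MSM livers. The MSM livers were again below the B6 livers, but by 1.1-fold and 1.52-fold, and the log2 difference of -0.37 ± 0.20 did not pass (limma adjusted p = 0.452). 3 of the 10 members, Hamp, Hamp2 and Tfr2, had both MSM livers below both B6 livers, beside 22.8% of all genes tested, and 3, Tfrc, Trf and Slc40a1, had both above, beside 20.5%. Summed over the pair, the level was 2637 and 3682 FPKM in B6 liver and 1282 and 969 FPKM in MSM liver. Hamp made up 63.1% and 71.9% of that sum in B6 and 31% and 29.5% in MSM. By FPKM the higher copy was thus Hamp in B6 and Hamp2 in MSM. This split depends on how reads shared by the pair were divided and on the alignment of MSM reads to a B6 reference, and neither was tested.

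The injected B6 liver had more Hamp than the untreated one, by 0.61 on the median-centred log2 scale, and the injected MSM liver had less, by -0.51. Hamp2 differed by 0.03 in B6 and -0.40 in MSM. Neither reached 2-fold, there is no replicate of any of these livers, and the difference between the strains' changes was not tested within liver.

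In thymus Hamp was at 3.03 and 1.55 FPKM in B6 and 51.7 and 1.67 FPKM in MSM, untreated first. Hamp2 was listed at 0 and 1.26 FPKM in B6 and 16.6 and 0 FPKM in MSM. Outside the untreated MSM thymus these values come to an estimated 2.17 fragments or fewer, so hepcidin mRNA there was at the limit of what this depth can show. Subtracting the median hepatocyte share of B6 liver RNA from the untreated MSM thymus, an alternative chosen after seeing the data, left 4.96 FPKM of Hamp and 0 of Hamp2. The strain difference of Hamp in thymus was 1.89 ± 0.77 as deposited (adjusted p = 0.383), 0.32 ± 0.36 after subtraction (adjusted p = 0.766) and -0.26 without that library. Liver exceeded thymus by 7.09 ± 1.09 for Hamp (adjusted p = 0.00218) with limma over 8 libraries and mouse as a block. For Hamp2 the difference was 8.46, given as a description. Without the liver RNA in 1 thymus, Hamp2 would meet the filter on low values only through liver. Without the untreated MSM thymus these were 8.49 and 9.39. The size again depends on the added value, from 7.49 with 0.1 to 6.16 with 5 for Hamp and from 10.32 to 6.86 for Hamp2, which is listed at 0 in 2 thymi. The strain difference of Hamp in liver minus that in thymus was -4.53 ± 0.92 and did not pass (adjusted p = 0.127), and it was -2.95 ± 0.48 after subtraction (adjusted p = 0.0685).

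**Figure D3:**
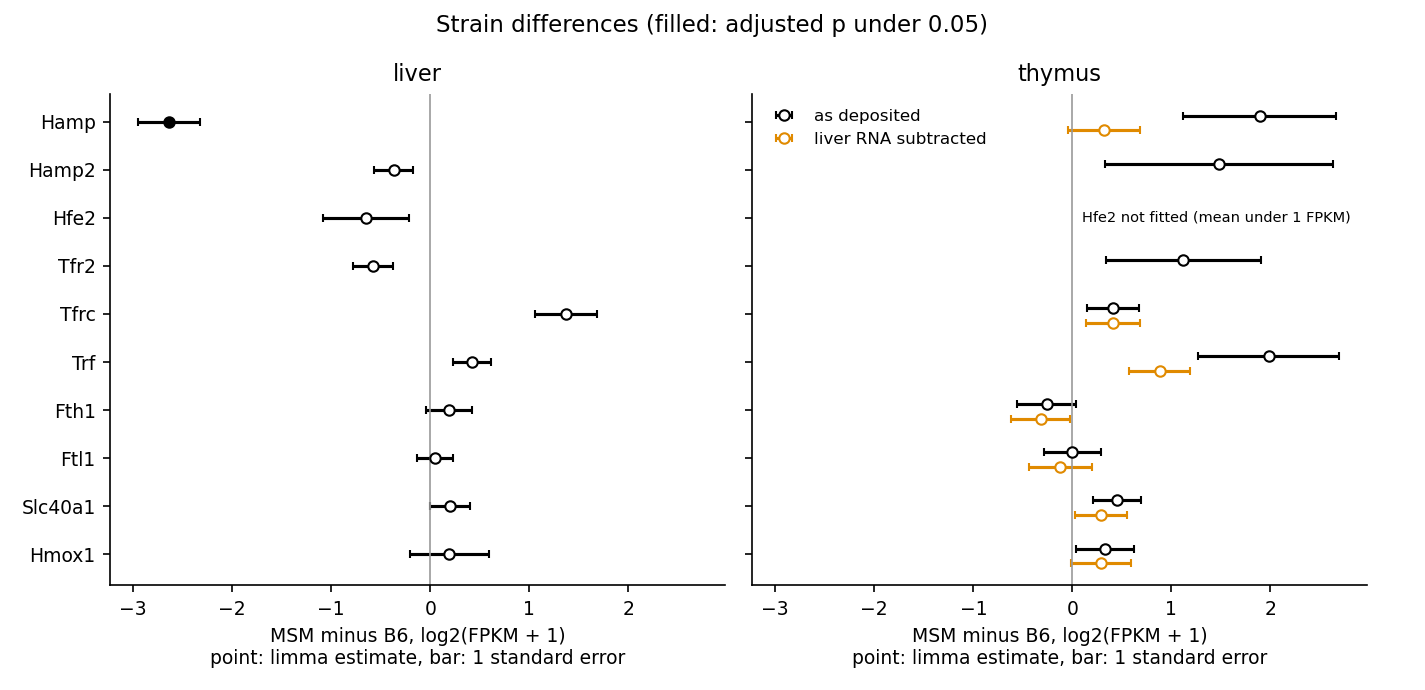
MSM minus B6 difference of each member in liver (left) and thymus (right) on the log2(FPKM + 1) scale, points being limma estimates over 4 libraries and bars 1 standard error; orange points repeat the thymus fit after subtracting liver RNA from the untreated MSM thymus, where Hamp2 and Tfr2 fall under the filter. Hamp in liver, at -2.64, is the filled point, and the thymus differences of Hamp and Trf shrink from 1.89 and 1.98 to 0.32 and 0.88.

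Neither sensor upstream of hepcidin passed the strain test in liver. Hfe2, the BMP co-receptor hemojuvelin (chr3:96525172-96529210), was at 17.7 and 21.4 FPKM in B6 and 19.4 and 7.34 FPKM in MSM livers. Only the injected MSM liver was low, and the strains overlapped (-0.65 ± 0.43, limma adjusted p = 0.518). Without that library the strain difference was -0.01. Tfr2, a transferrin receptor that acts as an iron sensor in hepatocytes (chr5:137569840-137587481), was at 127 and 132 FPKM in B6 and 91.4 and 81.2 FPKM in MSM livers. Its groups did not overlap, by 1.39-fold and 1.62-fold, with a log2 difference of -0.58 ± 0.20 (adjusted p = 0.27). In thymus both sensors were at 0 to 0.213 FPKM except in the untreated MSM thymus, with 1.56 FPKM of Hfe2 and 5.33 of Tfr2. Liver minus thymus was 3.63 for Hfe2 and 5.96 for Tfr2, both given as a description. Hfe2 met the filter only through liver, and Tfr2 would do so without the liver RNA in 1 thymus. With thymus levels this near 0 the added value sets the size, which was 5.88 with 0.1 added and 1.93 with 5 added for Hfe2 and 7.93 and 4.18 for Tfr2.

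Of 20 further genes of the BMP-SMAD control of hepcidin, 18 were tested between strains in liver, and limma called none of them. An unadjusted p under 0.05 was found for 5 of the 18 and for 16.2% of all genes in this comparison. Their median was -0.31, against 0.01 for all genes, with 13 lower and 5 higher in MSM, beside 49.4% of all genes lower. Id3, a BMP target gene, was at 77 and 47.4 FPKM in B6 and 25.4 and 12.7 FPKM in MSM livers. The MSM livers were lower by 3.03-fold and 3.73-fold (-1.69 ± 0.23, adjusted p = 0.0518). Id1, another BMP target, was at 22.3 and 14.9 FPKM in B6 and 6.52 and 8.08 FPKM in MSM (-1.22 ± 0.32, adjusted p = 0.189). Hfe, a further sensor partner, was at 28 and 24.5 FPKM in B6 and 14.4 and 13.4 FPKM in MSM (-0.87 ± 0.24, adjusted p = 0.203). Both MSM livers were below both B6 livers for 6 of the 18 genes, Id1, Id3, Hfe, Smad5, Smad7 and Atoh8, beside 22.8% of all genes, and above for Acvr2a, beside 20.5%. Bmp6, the main iron-responsive ligand, was low throughout at 2.48, 1.01, 0.785 and 1.44 FPKM in the order B6 untreated, B6 injected, MSM untreated and MSM injected. Tmprss6, the protease that cuts hemojuvelin, was at 134 to 165 FPKM in the 4 livers (0.12 ± 0.20, adjusted p = 0.813). Between tissues 11 of 19 tested were called higher in liver and 2 lower, beside 28.6% and 32.1% of all genes. Bmp2, Bmp6, Acvr1 and Atoh8 among the 11 averaged under 1 FPKM in thymus and Fam132b among the 2 under 1 FPKM in liver, so they were kept by the tissue in which they are high. The others were 7 higher and Smad5 lower. Tmprss6 among the 7 differed most, by 6.47, given as a description. Its level was 4.38 FPKM in the untreated MSM thymus, which held liver RNA, and 0.097 to 0.107 FPKM in the other thymi. Its thymus mean of 1.17 FPKM thus rests on that library, without which Tmprss6 would meet the filter only through liver. Of the 10 genes of the IL-6 and STAT3 arm 8 were tested between strains in liver, none passed and 1 had an unadjusted p under 0.05, beside 16.2% of all genes, with a median of 0.09. In thymus limma called no gene of the 7 pathway lists between strains.

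**Figure D4:**
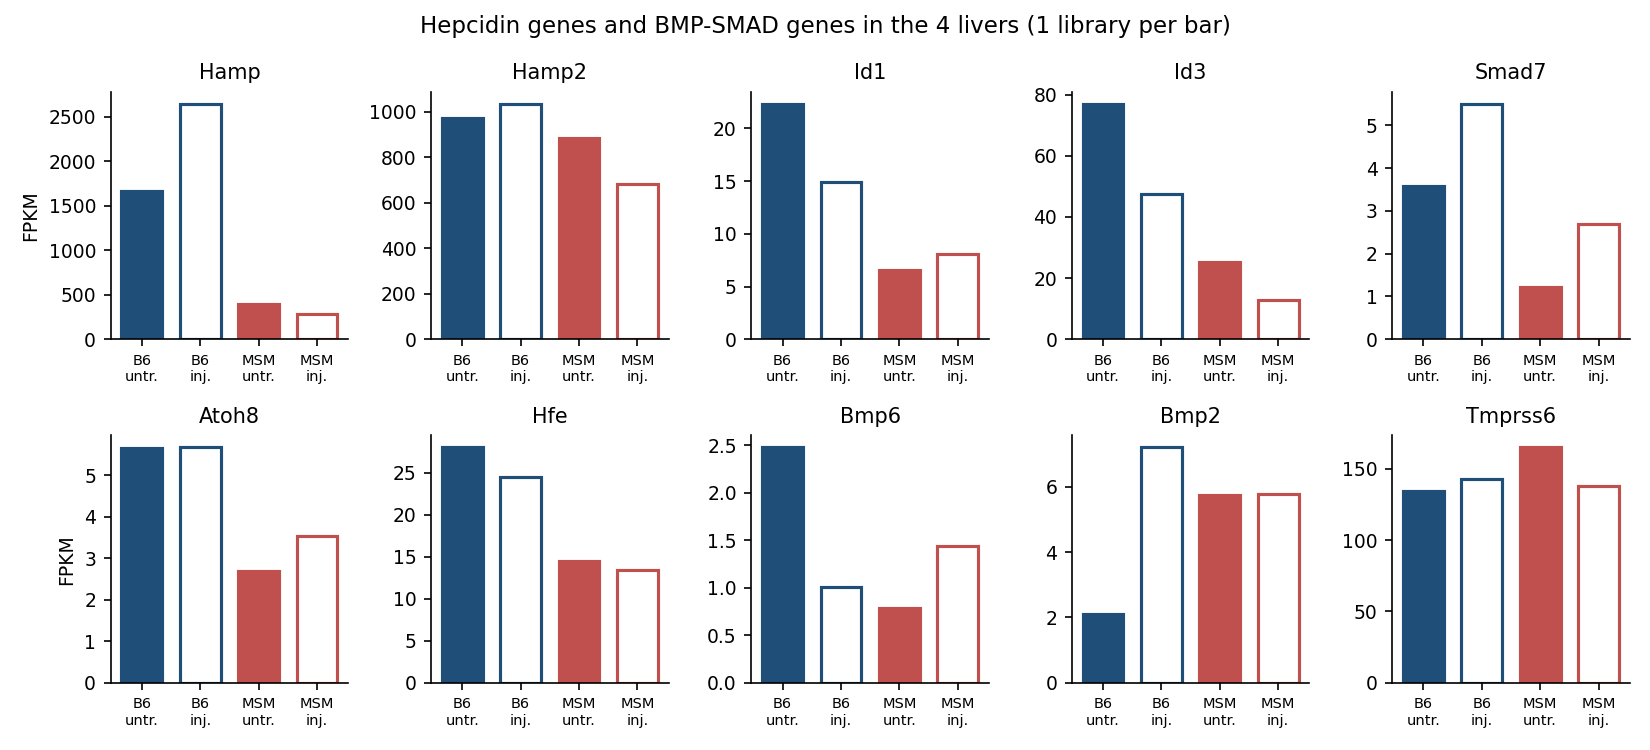
FPKM of both hepcidin genes and of 8 genes of the BMP-SMAD pathway in the 4 livers, 1 library per bar, with B6 at the left and MSM at the right and injected mice as open bars. Hamp, Hamp2, Id1, Id3, Smad7, Atoh8 and Hfe are lower in both MSM bars than in both B6 bars, and only Hamp passed the test. The 8 genes are a selection from a list of 20. Of the 18 tested, 6 had both MSM livers below both B6 livers, 1 had both above and 11 overlapped.

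Markers of other liver cells are given beside these genes. All 12 Kupffer cell and macrophage markers were lower in MSM liver by estimate, beside 49.4% of all genes, with a list median of -1.76. Of these 2, Csf1r and Lyz2, passed, beside 0.957% of all genes called lower. Their summed level was 512 and 244 FPKM in B6 and 92.7 and 95.9 FPKM in MSM livers, untreated first, and none was at 0. Of 7 markers of liver sinusoidal endothelium, the cells that make BMP ligands, 6 were lower in MSM by estimate, beside 49.4% of all genes, and none passed. Their sums were 181 and 146 FPKM in B6 and 118 and 65.3 FPKM in MSM. The 10 hepatocyte markers, by contrast, had a median of 0.25 and none passed. The part of these cell types in the strain difference of Hamp was not tested.

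Tfrc, the receptor that brings transferrin-bound iron into cells (chr16:32608920-32632794), had higher values in MSM liver but did not pass the test. It was at 5.42 and 7.19 FPKM in B6 and 20.5 and 15.4 FPKM in MSM livers, untreated first. Both MSM livers were above both B6 livers, by 3.77-fold and 2.14-fold, with a log2 difference of 1.37 ± 0.31 (limma adjusted p = 0.148), staying at 1.02 to 1.57 under every alternative run. In thymus Tfrc was at 22.2 and 15.3 FPKM in B6 and 23.5 and 26.3 FPKM in MSM, so the MSM thymi were higher by 1.06-fold and 1.72-fold (0.41 ± 0.26, adjusted p = 0.564). It was the only member lower in liver than in thymus, by -0.94 ± 0.29 (adjusted p = 0.0294). That call was lost without any library of a B6 mouse or of the injected MSM mouse, with values of -1.01 to -0.64 and adjusted p of 0.0677 to 0.0927. Both MSM livers, at 20.5 and 15.4 FPKM, lay within the thymus range of 15.3 to 26.3 FPKM.

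Trf, the plasma iron carrier secreted by hepatocytes (chr9:103204001-103230444), was the most abundant member, at 8449 and 8862 FPKM in B6 and 10280 and 12987 FPKM in MSM livers. The MSM livers were higher by 1.22-fold and 1.47-fold (0.42 ± 0.19, adjusted p = 0.367). The thymi held 22.7 and 26.4 FPKM in B6 and 303 and 32.2 FPKM in MSM, and after subtraction the untreated MSM thymus kept 65.4 FPKM. The strain difference in thymus was 1.98 ± 0.71 (adjusted p = 0.335), 0.88 ± 0.31 after subtraction (adjusted p = 0.18) and 0.38 without that library. Liver exceeded thymus by 7.63 ± 0.63 (adjusted p = 0.000198). Of the 50-base stretches of its transcript, 79.8% also lie in Gm20425, an overlapping gene model, so its level depends on how these reads were assigned.

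Of 12 other genes of iron transport and reduction, 10 were tested between strains in liver and none passed (2 with an unadjusted p under 0.05, beside 16.2% of all genes). Their median was -0.55, with 8 lower in MSM, beside 49.4% of all genes lower. Steap4, a metalloreductase, was at 37.5 and 62.2 FPKM in B6 and 25.8 and 26.6 FPKM in MSM livers (-0.86 ± 0.27, limma adjusted p = 0.237). Slc11a2, the iron importer DMT1, was at 9.24 and 5.76 FPKM in B6 and 9.66 and 1.83 FPKM in MSM (-0.60 ± 0.42, adjusted p = 0.542). Slc25a37, the mitochondrial importer mitoferrin, was at 5.99 and 7.86 FPKM in B6 and 4.52 and 4.66 FPKM in MSM (-0.49 ± 0.30, adjusted p = 0.491). Between liver and thymus 5 of the 10 were higher in liver and Slc25a37 lower, beside 28.6% and 32.1% of all genes. Steap2 among the 5 was kept by its liver level alone. The 5 also included Cp, the copper ferroxidase ceruloplasmin (6.70 ± 0.52, adjusted p = 0.000169), and the importers Slc39a14 (3.56 ± 0.43, adjusted p = 0.000788) and Slc39a8 (2.77 ± 0.22, adjusted p = 0.000191).

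Fth1, the ferritin subunit that oxidises iron for storage (chr19:9980598-9985098), was at 481 and 967 FPKM in B6 and 689 and 872 FPKM in MSM livers. The untreated B6 liver was the lowest and the injected B6 liver the highest, so the strains overlapped (0.19 ± 0.23, limma adjusted p = 0.746). The injected mouse was higher in both strains, by 0.94 on the median-centred log2 scale in B6 and 0.31 in MSM. As deposited the B6 livers differed by 2.01-fold, so B6 lies at the 2-fold mark and MSM under it. Ftl1, the subunit that supports mineral core formation (chr7:45457944-45459884), was at 2202 and 2378 FPKM in B6 and 2435 and 2315 FPKM in MSM livers. It was the steadiest member in liver, with 1.11-fold between the highest and the lowest library (0.05 ± 0.18, adjusted p = 0.914, and -0.12 after rescaling to a common sum). The ratio of Fth1 to Ftl1 therefore went from 0.218 to 0.407 in B6 and from 0.283 to 0.377 in MSM, untreated to injected.

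In thymus Fth1 was at 155 and 214 FPKM in B6 and 173 and 133 FPKM in MSM, and Ftl1 at 339 and 304 FPKM in B6 and 402 and 255 FPKM in MSM. Here too the strains overlapped for both, with differences of -0.26 ± 0.30 (adjusted p = 0.771) and -0.00 ± 0.29 (adjusted p = 0.998). Both were higher in liver, by 2.12 ± 0.23 for Fth1 (adjusted p = 0.000559) and 2.86 ± 0.22 for Ftl1 (adjusted p = 0.000168). Ftl1 shares 90.6% of its 50-base stretches with 17 other annotated genes, among them Ftl1-ps1, Ftl1-ps2 and Ftl2-ps, and Fth1 shares 6.59% with Gm6977, so the Ftl1 level in particular is uncertain.

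Slc40a1, the exporter that hepcidin acts on (chr1:45908068-45926523), was at 77.8 and 77.6 FPKM in B6 and 89.6 and 89 FPKM in MSM livers. The MSM livers were higher by 1.15-fold in both treatments, which was within the error of the fit (0.20 ± 0.20, limma adjusted p = 0.678). Macrophages are a known site of ferroportin, and the summed Kupffer cell and macrophage markers of the same livers were at 512 and 244 FPKM in B6 and 92.7 and 95.9 FPKM in MSM. In thymus it was at 7.3 and 10.5 FPKM in B6 and 10.4 and 14.6 FPKM in MSM, with overlapping strains (0.45 ± 0.24, adjusted p = 0.489). The injected mice were higher in thymus by 0.44 in B6 and 0.39 in MSM and differed in liver by -0.06 and -0.04. Liver exceeded thymus by 2.88 ± 0.18 (adjusted p = 9.46e-05).

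The genes of iron sensing and ferritin turnover showed no strain call either: of 7, 6 were tested in liver and limma called none, with none at an unadjusted p under 0.05 and a median of 0.00. Aco1, which encodes iron regulatory protein 1, was at 76.9 and 69.6 FPKM in B6 and 66.2 and 57.5 FPKM in MSM livers (-0.24 ± 0.20, adjusted p = 0.612). Ncoa4, the receptor that carries ferritin to lysosomes, was at 76.6 and 78.2 FPKM in B6 and 65.9 and 112 FPKM in MSM (0.15 ± 0.26, adjusted p = 0.824). 3 of the 6, Aco1, Ireb2 and Ncoa4, were higher in liver than in thymus and none lower, beside 28.6% and 32.1% of all genes. Aco1 was higher by 3.01 ± 0.15 (adjusted p = 7.19e-05). Ireb2, which encodes iron regulatory protein 2, was higher by 0.66 ± 0.20 (adjusted p = 0.0287) and Ncoa4 by 1.21 ± 0.19 (adjusted p = 0.00245).

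Hmox1, the inducible enzyme that opens the haem ring and frees its iron (chr8:75093621-75100589), was low, at 11.5 and 8.49 FPKM in B6 and 7.99 and 16.2 FPKM in MSM livers. These levels rest on an estimated 18.9 to 34.8 fragments. The injected MSM liver was the highest and the untreated MSM liver the lowest, so the strains overlapped (0.19 ± 0.40, limma adjusted p = 0.859). The injected mouse was lower in B6, by -0.46, and higher in MSM, by 0.91. In thymus the levels were 2.74 and 5.18 FPKM in B6 and 4.38 and 5.84 FPKM in MSM, higher in the injected mouse by 0.69 in B6 and 0.28 in MSM (strain difference 0.33 ± 0.29, adjusted p = 0.686). Liver exceeded thymus by 1.11 ± 0.25 (adjusted p = 0.00961). It was the member that lost this call after rescaling to a common sum, at 0.19 (adjusted p = 0.547).

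Haem synthesis genes were called between tissues, as were 60.7% of all genes, and not between strains. In liver limma called 0 of 9 synthesis genes between strains (3 with an unadjusted p under 0.05, beside 16.2% of all genes, median -0.35). Alas1, the rate-limiting enzyme of haem synthesis in liver, was at 104 and 501 FPKM in B6 and 40.7 and 288 FPKM in MSM livers (-1.06 ± 0.22, adjusted p = 0.129). Between tissues 7 of the 9 were higher in liver and none lower, beside 28.6% and 32.1% of all genes. Among the 7 were Alad (3.98 ± 0.23, adjusted p = 8.19e-05), Cpox (3.07 ± 0.17, adjusted p = 7.74e-05) and Fech, which inserts the iron (3.00 ± 0.33, adjusted p = 0.000552). Of 10 genes of haem clearance and breakdown none passed between strains in liver (2 with an unadjusted p under 0.05, beside 16.2% of all genes, median -0.16). Among those averaging 5 FPKM or more the largest difference was that of Hmox2, the constitutive haem oxygenase, at 18.8 and 22 FPKM in B6 and 30.1 and 50.9 FPKM in MSM (0.91 ± 0.25, adjusted p = 0.208). Between tissues 5 of these 10 were higher in liver and 1 lower, beside 28.6% and 32.1% of all genes. Mfsd7c (also called Flvcr2) among the 5 was kept by its liver level alone. The 5 included the haem carrier Hpx (8.56 ± 0.94, adjusted p = 0.000555) and the haemoglobin carrier Hp (7.53 ± 0.67, adjusted p = 0.00026). The haem exporter Mfsd7b (also called Flvcr1) was lower (-1.64 ± 0.21, adjusted p = 0.00102).

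NRF2 and BACH1 switch Hmox1 on and off, and 11 genes of that system were tested in liver with no strain call (2 with an unadjusted p under 0.05, beside 16.2% of all genes, median 0.29). Nqo1, an NRF2 target, was at 9.92 and 4.94 FPKM in B6 and 12 and 13.7 FPKM in MSM livers (0.78 ± 0.36, limma adjusted p = 0.375). Gclc, which makes glutathione precursors, was at 121 and 47.2 FPKM in B6 and 153 and 86.8 FPKM in MSM (0.60 ± 0.23, adjusted p = 0.304). 8 of the 11 were higher in liver than in thymus, beside 28.6% of all genes. Bach1 was lower (-0.84 ± 0.25, adjusted p = 0.0258), as were 32.1% of all genes.

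Between untreated and injected livers 4 of the 72 list genes tested passed 2-fold in both strains, all higher, beside 2.89% of all genes either way and 1.64% higher, and no member did. Of the 10 members 6, Hamp, Hamp2, Hfe2, Tfrc, Ftl1 and Hmox1, differed in opposite directions in B6 and MSM, beside 41.5% of all genes tested. The largest single differences of a member were Hfe2 in MSM, at -1.32, Fth1 in B6, at 0.94, and Hmox1 in MSM, at 0.91. Tfr2 differed by -0.01 and -0.20 and Slc40a1 by -0.06 and -0.04, and the B6 values of both turn positive under another scaling. Alas1 went from 104 to 501 FPKM in B6 and from 40.7 to 288 FPKM in MSM, by 4.83-fold and 7.09-fold. Il6ra, the hepatocyte receptor for IL-6, went from 6.59 to 29.7 FPKM in B6 and from 9.75 to 52.2 FPKM in MSM. Slc39a14, a zinc and non-transferrin-bound iron importer, went from 28.6 to 86 FPKM in B6 and from 32.2 to 98.9 FPKM in MSM, by 3.01-fold and 3.08-fold. Maff, a small partner of NRF2 and BACH1, went from 0 to 4.17 FPKM in B6 and from 1.45 to 15.5 FPKM in MSM. Both injected livers lay above both untreated livers for all 4 genes. They were picked for being 2-fold higher in both strains, so this adds no support, and the share of all genes with this order was not counted.

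Other genes of the IL-6 and BMP lists did not pass 2-fold in both strains. Il6 itself was listed at 0 in all 8 libraries, and Stat3 differed by 0.16 in B6 and 0.02 in MSM. Socs3, an early STAT3 target, differed by -0.23 and 0.51. Among BMP targets Id2 went from 178 to 94 FPKM in B6 and from 118 to 45.2 FPKM in MSM (-0.98 and -1.39), and Id3 differed by -0.75 and -0.98. Pcbp2, an iron chaperone, differed by 1.03 and 0.84, and Ireb2 by 0.60 and 0.56. Erythroid markers had sums of 722 and 558 FPKM in the untreated and injected B6 livers and 198 and 1811 FPKM in the MSM livers.

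**Figure D5:**
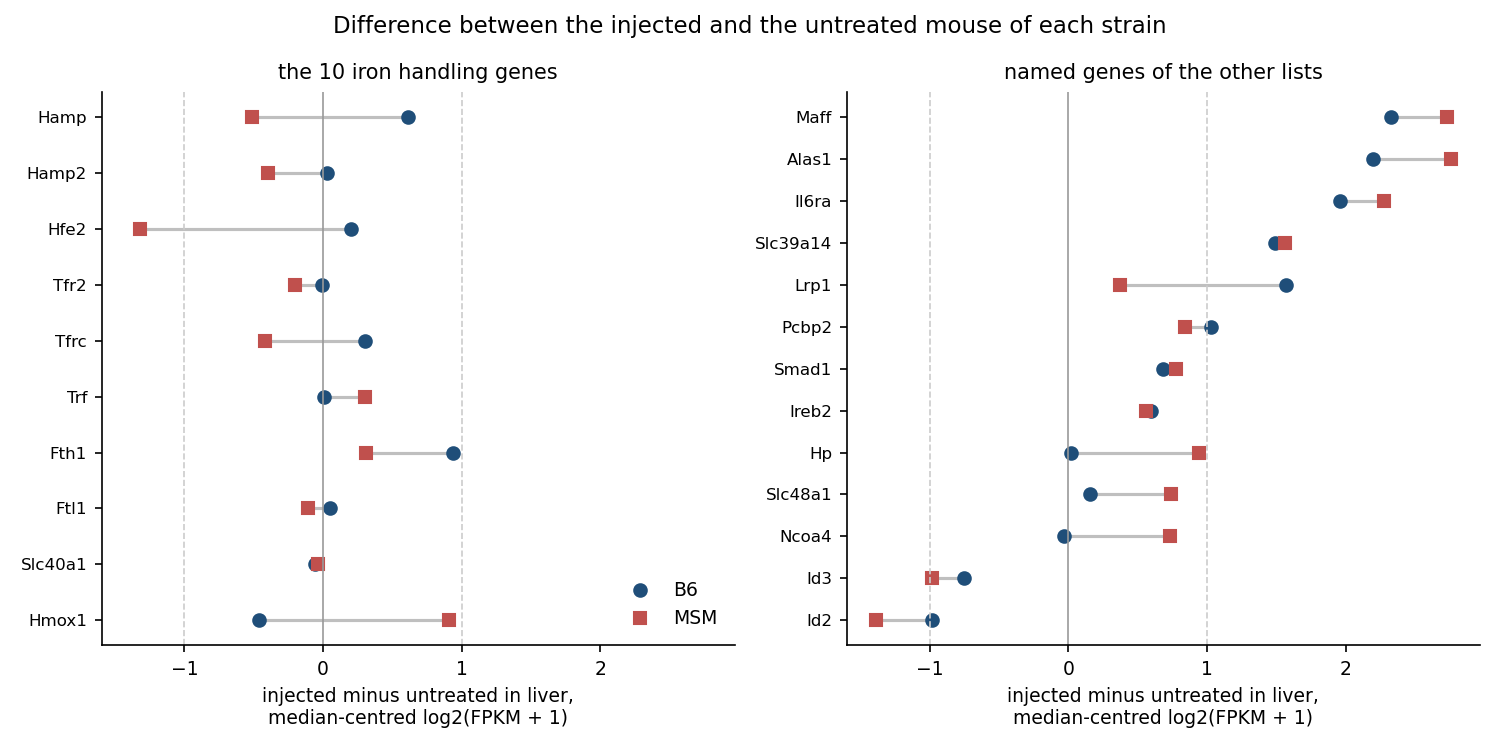
Injected minus untreated liver for each strain on the median-centred log2(FPKM + 1) scale, for the 10 members (left) and for the genes named from the other lists (right), 1 mouse per strain and treatment; dashed lines mark 2-fold. The members stay within 2-fold in both strains except Hfe2 in MSM at -1.32, while Maff, Alas1, Il6ra and Slc39a14 lie beyond 2-fold in both.

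In thymus none of the 9 members tested was 2-fold higher or lower in both strains, and 4, Hamp2, Tfrc, Trf and Fth1, differed in opposite directions in the strains, beside 50.3% of all genes tested. Hamp, Hamp2, Tfr2 and Trf were lower in the injected than in the untreated MSM thymus by -4.36, -4.17, -2.69 and -3.27, which compares against the library with liver RNA. After subtraction Hamp and Trf differed by -1.26 and -1.13, and Hamp2 and Tfr2 fell under the filter. In B6 the same genes differed by -0.69, 1.17, -0.14 and 0.17. Without the injected MSM thymus, the strain difference of Hamp, Tfr2 and Trf passed the test in thymus (4.04, 2.45 and 3.57, limma adjusted p = 0.0462, 0.0462 and 0.0379), a fit in which the library with liver RNA is the only MSM thymus. Of the 65 list genes tested in thymus 3 passed 2-fold in both strains, each lower, beside 0.689% of all genes either way and 0.422% lower. Steap4 went from 4.05 to 1.01 FPKM in B6 and from 3.62 to 0.983 FPKM in MSM. Alas2, the erythroid form of the first haem enzyme, went from 3.26 to 0.342 FPKM in B6 and from 6.78 to 2.41 FPKM in MSM. Blvrb, a biliverdin reductase also abundant in red cells, went from 7 to 2.24 FPKM in B6 and from 10.7 to 3.87 FPKM in MSM. The MSM values of these 3 genes again compare against the library with liver RNA. In the untreated B6 liver Steap4, Alas2 and Blvrb were at 37.5, 9.49 and 65.2 FPKM. Whether each stays past 2-fold in MSM after subtraction is not given here. Summed erythroid markers were lower in the same thymi, at 134 and 40.7 FPKM in B6 and 453 and 42.9 FPKM in MSM, untreated first.

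The 5 genes whose profile over the 8 libraries was nearest to that of Hamp, out of 7530 searched, each averaging 5 FPKM or more, were Orm1, Cyp2c37, Cyp2c68, Cfhr2 and Cyp2c69. Their root-mean-square distance from Hamp in centred log2(FPKM + 1) ran from 0.331 to 0.411. Orm1, an acute-phase plasma protein, was at 836 and 904 FPKM in B6 and 144 and 178 FPKM in MSM livers, and at 29.4 FPKM in the untreated MSM thymus. Cyp2c69, a cytochrome P450, was at 658 and 1149 FPKM in B6 and 238 and 116 FPKM in MSM livers, so that, like Hamp, it was highest in the injected B6 liver and lowest in the injected MSM liver. The nearest genes share the untreated MSM thymus with Hamp, and its liver RNA enters the distance. For Hmox1 the 5 nearest were Ppp3ca, Mtg1, Mrpl38, Polr2l and Kcmf1, at distances of 0.173 to 0.222. Ppp3ca, a calcineurin subunit, was at 11.6, 10.9, 9.57 and 21.1 FPKM in the livers in the order B6 untreated, B6 injected, MSM untreated and MSM injected. Like Hmox1 it was highest in the injected MSM liver.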

How the data were processed

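Polyadenylated RNA of 8 libraries (liver and thymus of 4 mice) was sequenced. The submitters' processing notes name TopHat, Cuffdiff 2.2.1 and the mm10 build; the sources used here do not give the annotation or the settings. The authors deposited gene FPKM in 1 table for untreated and 1 for injected mice, per the file headers. Fragments per FPKM were estimated from whole-number steps in 2015 single-transcript genes of at least 1500 nt, with 200 nt taken off the length; 69.6% to 74.4% of values came out whole within 0.1, against 20% by chance, and such depths carry counting error only.

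From the FPKM, log2(FPKM + 1) was tested with limma 3.58.1 (mean trend, R 4.3.3, two-sided, Benjamini-Hochberg over all genes averaging 1 FPKM or more). Strain fits used the 4 libraries of a tissue with treatment as a term, so 1 residual degree of freedom was left. The error of each gene was moderated toward that of other genes of similar mean level, and so depends largely on them. Liver minus thymus used mouse as a block, since the design text says both organs came from the same mouse. Comparisons of a difference between tissues were fitted on the 4 liver minus thymus ratios. The injection coincides with the separately normalized table and was not tested within a tissue; median-ratio centred differences are given per strain, and called at 2-fold in both strains.

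Named genes are the 10 members, every gene of the other lists past the threshold or else the 3 with the largest difference and a mean of 5 FPKM or more (a selection of these is printed), and the 5 nearest profiles of Hamp and Hmox1. Bmp6, Tmprss6, Socs3, Stat3 and Il6 were named for their roles, after values were seen. The members and lists were chosen with earlier results of these data known. Of the list genes, Hbb-bt and Ly6g were not matched. Motifs and shared stretches were searched in GENCODE transcripts of mm10. The coding sequences of the hepcidin genes are not reported here. The code was tested on simulated data. Alternatives were other added values, filters, scalings and limma settings, other model terms, leaving out libraries or mice, and, chosen after seeing the data, subtraction of liver RNA from the untreated MSM thymus.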

Additional observations from a re-analysis of the deposited data

Results flagged for a closer look

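For 9 results the injected mouse of one strain was higher and that of the other lower than its untreated counterpart, among members averaging 5 FPKM or more in the tissue. Each strain has 1 mouse per treatment, and the difference between the strains' changes was not tested. In liver the MSM change minus the B6 change, on the median-centred log2 scale, was -1.51 for Hfe2, -1.12 for Hamp, -0.72 for Tfrc, -0.43 for Hamp2, -0.15 for Ftl1 and 1.36 for Hmox1. Opposite directions in the strains were found for 41.5% of all genes tested in liver and 50.3% in thymus. In thymus the values were 0.63 for Tfrc, -0.87 for Fth1 and -3.44 for Trf, the last resting on the untreated MSM thymus that held liver RNA. The Hmox1 values rest on an estimated 18.9 to 34.8 fragments per liver, and those of Hfe2 on 21.1 to 70.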

How the results depend on the processing

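The number of members called was kept under most alternatives. Between strains in liver 1 member passed, against 0 with an added value of 5, 0 without the mean trend and 0 (range 0 to 0) without any 1 library. In thymus 0 passed, and 0 to 3 without 1 library. Between tissues 10 passed, 10 without the mouse block (8130 genes against 7821 with it, so pairing changed no member's call), 9 after rescaling to a common sum and 9 to 10 without 1 library. In both comparisons across tissues 0 members passed throughout. For the injection 0 passed, and 1 (Hamp in thymus) at 1.5-fold. The number of all genes called moved more. In liver it was 161 between strains, 336 after rescaling to a common sum, 37 without trend and 0 to 0 without 1 library. In thymus it was 113, then 300 with an added value of 0.1, 62 without a filter, 184 at 5 FPKM, 45 rescaled, 61 centred, 44 without trend, 274 with robust moderation, 364 after subtraction of liver RNA and 10 to 301 without 1 library. For the strain difference compared between tissues it was 89, then 0 with 0.1 added, 191 with 5 added, 40 without a filter, 39 at 5 FPKM, 10 rescaled, 47 centred, 26 without trend and 0 to 13 without 1 mouse. For the injection compared between tissues it was 5, then 0 with 0.1 added and 0 to 0 without 1 mouse. For the injection it was 316 in liver, then 552 with 0.1 added, 107 with 5 added, 197 at 5 FPKM and 1036 at 1.5-fold. In thymus it was 80, then 231 with 0.1 added, 25 with 5 added, 39 at 5 FPKM, 297 rescaled and 370 at 1.5-fold. The causes of these shifts were not tested. No member's difference turned its direction with a call under any alternative run. Leaving out 1 liver left a strain fit with 3 libraries and no treatment term, in which the lone library of a strain is assumed to vary like the others. The thymus values of Hamp outside the untreated MSM library stand for an estimated 1.08 to 2.17 fragments.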

Other observations

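Red cell and neutrophil markers differed between the libraries in which haem genes were read. Summed over 9 matched erythroid markers, liver held 722 FPKM in untreated B6, 198 in untreated MSM, 558 in injected B6 and 1811 in injected MSM. Alas2, whose 5′ UTR also holds the iron-responsive motif, was at 9.49, 1.3, 9.43 and 25.4 FPKM in the same livers, so it was lowest and highest where the erythroid sum was. Neutrophil markers summed to 19.9, 7.09, 31 and 28.6 FPKM in those livers and, in thymus, to 26.3 and 2.64 FPKM untreated and 47.3 and 42 FPKM injected, B6 first. Fam132b, which encodes the erythroid hormone erythroferrone that lowers hepcidin, was listed at 0 in 3 livers and at 1.49 FPKM in the injected B6 liver. In thymus it averaged 1.83 FPKM, and it met the filter on low values only through thymus.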
